A study of Mus musculus with 6 samples.

Results

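A set of 10 transcripts that mark the blood vessels of the brain was followed in purified microglia of Mir137 conditional knockout mice and their controls. They are 6 endothelial markers (Cldn5, Flt1, Ptprb, Ly6c1, Pecam1 and Kdr) and 4 markers of mural cells (Notch3, Cspg4, Tagln and Rgs5). They were taken by name as rows of the deposited count table, and all 10 were found among its 17459 genes. The cKO mice carried the genotype Mir137loxP/loxP;Tmem119-CreERT2, and the cWT controls carried Mir137+/+;Tmem119-CreERT2. Mice of both genotypes were C57BL/6J males, 8 weeks old by the labels, and had received tamoxifen on 7 days in a row at 7 to 8 weeks, so the controls shared the Cre allele and the drug. Tmem119, which drives the Cre, is a microglial gene in the brain, so the deletion was aimed at microglia and not at vessel cells. There were 3 libraries of each genotype, and 4 mice are named for the isolation without saying how they fall into libraries. Nothing says that the libraries came from separate animals, so the p-values speak of the spread among libraries, which may be technical.

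Brain capillaries are tubes of endothelial cells sealed by tight junctions, which form the blood-brain barrier. Mural cells sit on their outer wall, as pericytes on capillaries and as smooth muscle cells on arterioles. Endothelial growth is driven by VEGF acting on the receptor KDR, while FLT1 binds VEGF as a decoy, and endothelial Notch ligands act on NOTCH3 of mural cells. Neither cell type is the microglial cell that was isolated. In bulk samples, fewer cells of a type and less RNA per cell cannot be told apart.

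Libraries held 16503825 to 17482042 counts in cWT and 12068703 to 15212800 in cKO. All 12 microglial markers examined were present, and their summed level was 36598 to 38901 CPM (counts scaled to a common library size, by TMM between libraries) in cWT and 36025 to 41432 CPM in cKO. The TMM factors were 1.13 to 1.17 in cWT and 0.85 to 0.90 in cKO. As a share of all counts the microglial sum was lower in every cKO library. Singly, 5 of the 12 were higher and 5 lower (edgeR adjusted p under 0.05). The 10 vascular markers took 0.188% ± 0.0218 of all counts in cWT and 0.157% ± 0.0160 in cKO (SD, n = 3 each), while with TMM scaling their summed level was 1635 ± 175 CPM in cWT and 1797 ± 159 CPM in cKO. The direction of the total thus depended on the scaling, and the ranges of the genotypes overlapped on both scales. For Mir137 itself the authors' deposited table lists a mean of 0, which leaves the deletion unchecked here. Over the whole table, fold changes went with transcript length, with a Spearman correlation across 12983 genes of -0.72, and genes are not independent replicates. Each member is therefore given with its annotated transcript length, with the median of genes of similar length, and with a fit whose offsets take out the average relation of counts to length and GC content in each library. In that fit 2 of the 12 microglial markers were higher and 7 lower.

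The microRNA that was deleted, and the places where its seed matches a member, are shown first, since the genotypes differ in this microRNA. Bases 2 to 8 of the mature strand (chromosome 3, 118433901 to 118433923, GRCm38, plus strand, sequence from RefSeq) and the matching AGCAATA in the 3' UTRs (GENCODE M21 transcripts, GRCm38) are in capitals.
miR-137-3p: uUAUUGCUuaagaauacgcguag
Ptprb, chr10:116384591-116384619, plus strand: gtgccatagcgAGCAATActaacagggat
Ptprb, chr10:116387073-116387101, plus strand: aacagatgtccAGCAATAcaaaaataggg
Rgs5, chr1:169693380-169693408, plus strand: tttaaatttagAGCAATAtatatacatac
Ptprb and Rgs5 were the members with a match, 2 of 10, while 9.23% of 15582 genes with an annotated 3' UTR had at least 1. They also have the longest annotated 3' UTRs of the 10, at 5660 and 3473 bases. Both transcripts were lower in cKO, and a match does not say that a site is used.

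In cKO, 7 of the 10 markers fell and 3 rose in the edgeR quasi-likelihood test (adjusted p under 0.05). Flt1, Ptprb, Kdr, Notch3 and Cspg4 fell by more than 4-fold and Rgs5 by 2.63-fold, Pecam1 fell slightly, and Ly6c1, Tagln and Cldn5 rose. The median log2 fold change of the 10 was -1.78, while that of all 13490 tested genes was -0.02. Among all tested genes 36.5% were called lower and 35.6% higher, so a call alone is common in this comparison. For all 10 members the libraries of the genotypes did not overlap, which held for 74.6% of tested genes. All 10 passed the filter on low counts.

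**Figure D1:**
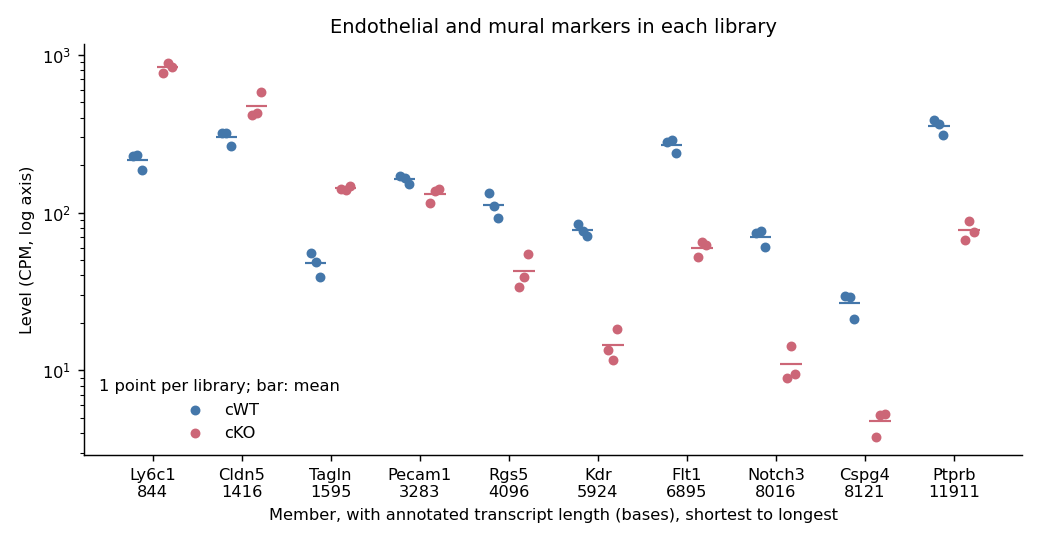
Level of each member in each library, in CPM on a log axis, with members ordered by annotated transcript length in bases. Points are libraries (3 cWT, 3 cKO) and bars are means. The 3 members of up to 1595 bases are higher in cKO, and those from 3283 bases upward are lower.

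Of the endothelial members, 3 encode receptors of vessel growth and stability. Flt1 (ENSMUSG00000029648.13, chromosome 5, 147561604 to 147726011, GRCm38), the VEGF decoy receptor, stood at 279.8, 288.7 and 238.8 CPM in the cWT libraries and at 52.6, 65.5 and 61.9 CPM in the cKO libraries. Every cKO library thus lay far under the lowest cWT library. The log2 fold change was -2.16 (SE 0.11, with an adjusted p of 1.479e-11 in edgeR), 4.48-fold lower.

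Kdr (ENSMUSG00000062960.10, chromosome 5, 75932827 to 75978458), the main signalling receptor for VEGF, had 84.3, 76.5 and 71.0 CPM in cWT and 13.4, 11.6 and 18.3 CPM in cKO. It fell by 2.41 on the log2 scale (SE 0.14, with an adjusted p of 6.537e-11 in edgeR). Ptprb (ENSMUSG00000020154.10, chromosome 10, 116275523 to 116389535) encodes VE-PTP, a phosphatase that restrains the angiopoietin receptor TIE2. Its levels were 385.1, 362.9 and 309.3 CPM in cWT against 67.2, 88.6 and 75.8 CPM in cKO. Its log2 fold change was -2.19 (SE 0.12, with an adjusted p of 2.328e-11 in edgeR), close in size to that of Flt1.

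The remaining endothelial members encode junction and surface proteins, of which Cldn5 and Ly6c1 rose and Pecam1 fell. Cldn5 (ENSMUSG00000041378.2, chromosome 16, 18776847 to 18778262) encodes claudin-5, the chief tight junction protein of the barrier. It had 319.1, 319.6 and 264.7 CPM in cWT and 417.0, 427.1 and 585.5 CPM in cKO, with cKO replicate 3 well above the other two. The log2 fold change was 0.66 (SE 0.13, with an adjusted p of 0.0001269 in edgeR). With libraries scaled by total count alone it was 0.27 and not called (edgeR adjusted p = 0.06648).

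Pecam1 (ENSMUSG00000020717.19, chromosome 11, 106654217 to 106750628), a junctional adhesion protein also found on platelets and leukocytes, had 170.3, 166.2 and 152.4 CPM in cWT and 115.1, 137.5 and 141.4 CPM in cKO. Its change was the smallest of the 10, with a log2 fold change of -0.31 (SE 0.10, with an adjusted p of 0.009613 in edgeR). The gap between the nearest libraries of the genotypes, 152.4 CPM in cWT and 141.4 CPM in cKO, was smaller than the range of the cKO libraries.

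Ly6c1 (ENSMUSG00000079018.10, chromosome 15, 75044018 to 75048830), a surface protein of brain endothelium, had the largest increase. Its levels were 228.4, 233.5 and 185.5 CPM in cWT and 774.2, 893.8 and 841.8 CPM in cKO, a log2 fold change of 1.95 (SE 0.11, with an adjusted p of 4.799e-11 in edgeR). Its counts are uncertain because of Ly6c2, a paralog expressed by monocytes, on the same chromosome (75108158 to 75111970). The coding sequences of the pair, of 396 bases each, differ at 9 bases (97.7% identical) and share a run of 188 identical bases. The opening 120 coding bases of each, on the minus strand of GRCm38 (GENCODE M21 transcripts), hold 6 of these differences, which are in capitals.
Ly6c1: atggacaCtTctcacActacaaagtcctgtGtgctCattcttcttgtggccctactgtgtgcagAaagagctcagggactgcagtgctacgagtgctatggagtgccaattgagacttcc
Ly6c2: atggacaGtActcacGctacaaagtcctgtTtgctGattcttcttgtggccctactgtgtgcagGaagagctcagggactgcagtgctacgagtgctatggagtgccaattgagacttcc
Ly6c2 counts came to between 17.9% and 35.4% of Ly6c1 counts in each library, and Ly6c2 rose as well, from 68.4 ± 6.10 to 177 ± 15.8 CPM (n = 3 each, log2 fold change 1.37, edgeR adjusted p = 1.166e-09). With the length and GC offsets Ly6c2 was called lower, at -0.33 (edgeR adjusted p = 0.000851). With the counts of the pair summed to 1 gene, the log2 fold change was 1.83.

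Mural members also split. Notch3 (ENSMUSG00000038146.8, chromosome 17, 32120820 to 32166852), the Notch receptor of mural cells, had 74.2, 76.0 and 60.9 CPM in cWT and 8.96, 14.3 and 9.41 CPM in cKO. It had the largest decrease of the 10, with a log2 fold change of -2.69 (SE 0.16, with an adjusted p of 5.44e-11 in edgeR), 6.45-fold lower. Cspg4 (ENSMUSG00000032911.6, chromosome 9, 56865033 to 56899870), the NG2 proteoglycan of pericytes and oligodendrocyte precursors, had 29.6, 29.1 and 21.2 CPM in cWT and 3.797, 5.22 and 5.31 CPM in cKO. It fell by 2.47 on the log2 scale (SE 0.18, with an adjusted p of 7.767e-10 in edgeR), and its counts in cKO were only 39, 59 and 70.

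Rgs5 (ENSMUSG00000026678.10, chromosome 1, 169655501 to 169695813), a pericyte regulator of G protein signalling, had 133.1, 110.8 and 92.2 CPM in cWT and 33.6, 39.0 and 54.5 CPM in cKO. Its spread within each genotype was wide, and the log2 fold change was -1.40 (SE 0.16, with an adjusted p of 1.958e-06 in edgeR). Tagln (ENSMUSG00000032085.5, chromosome 9, 45929619 to 45936058), which encodes the actin-binding protein transgelin of smooth muscle, went the other way. It had 55.5, 48.4 and 39.0 CPM in cWT and a narrow 141.3, 138.7 and 147.7 CPM in cKO, and rose by 1.58 on the log2 scale (SE 0.11, with an adjusted p of 8.688e-10 in edgeR).

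In the authors' deposited table the 10 log2 fold changes ran from -2.69 for Notch3 to 1.96 for Ly6c1, and the largest adjusted p was 0.004834, for Pecam1.

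Within a genotype the order of libraries was shared by most members. Of the cWT libraries, replicate 3 was the lowest for 10 of the 10 members. It was also lowest for the summed markers of each other cell type examined, except microglia, platelets and oligodendrocytes. How many of all tested genes shared this order was not counted. Of the cKO libraries, replicate 1 was the lowest for 8 members, with Kdr and Tagln as the exceptions, and replicate 3 was the highest for 6. The summed level of the 6 endothelial members was 1222 to 1467 CPM in cWT and 1439 to 1725 CPM in cKO, with ranges that overlap. That of the 4 mural members was 213.3 to 292.4 CPM in cWT and 187.6 to 217.0 CPM in cKO, also overlapping. On this TMM scale both sums thus overlapped although no single member did. As a share of all counts the endothelial sums still overlapped, while the mural sum was lower in every cKO library.

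Transcript length went with the direction of the members. Ly6c1, Cldn5 and Tagln have annotated transcripts of 844, 1416 and 1595 bases and rose. Pecam1 (3283 bases) and Rgs5 (4096 bases) lay between, and Kdr (5924), Flt1 (6895), Notch3 (8016), Cspg4 (8121) and Ptprb (11911) fell most. Across the 10 members the Spearman correlation of log2 fold change with length was -0.88 (a description over genes that share the same 6 libraries). When all tested genes of known length were split into 10 groups of equal size by length, the median log2 fold change was 1.57 in the shortest group and -1.45 in the longest.

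**Figure D2:**
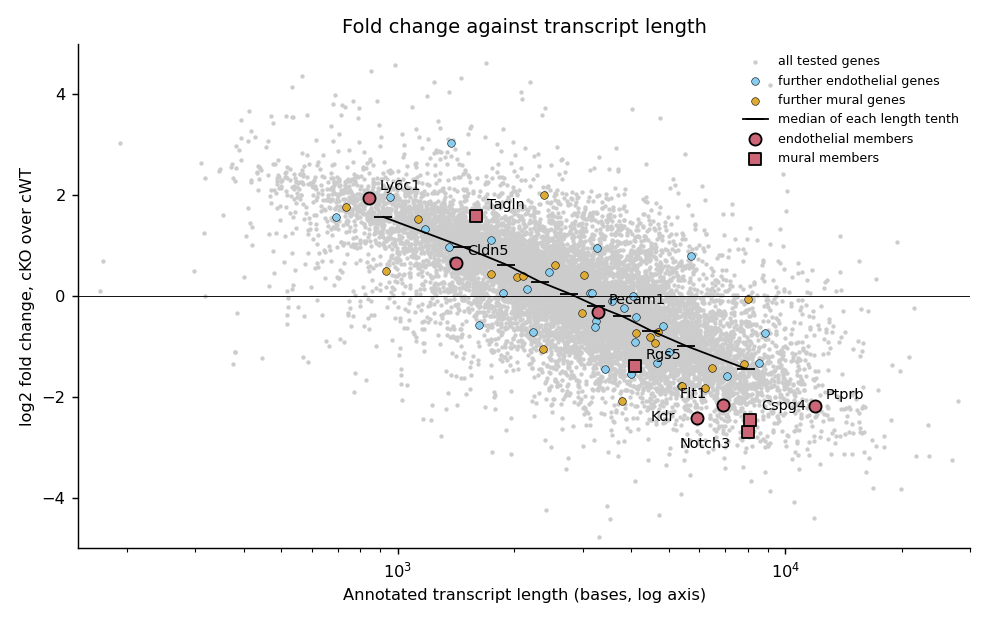
Log2 fold change of cKO over cWT against annotated transcript length (bases, log axis) for 12983 tested genes in grey, the 10 members labelled, and further endothelial and mural genes in colour. The black line joins the medians of 10 length groups, each drawn at its median length, and 11 genes beyond 5 in either direction lie outside the axis. The members follow the downward slope, and Kdr, Notch3, Cspg4 and Rgs5 lie furthest under the medians, by differences of -0.995 to -1.42.

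Genes of similar length give another base for each value. Ly6c1 stood 0.39 above the median of its length group, Tagln 0.60 above, and Cldn5 0.32 below, although it had risen. Pecam1 was 0.12 below the median of its group. Flt1 and Ptprb were lower than their group median by differences of -0.72 and -0.74, Rgs5 by -0.995, Cspg4 by -1.02, Notch3 by -1.24 and Kdr by -1.42.

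With the offsets for length and GC content, 6 of the 10 members were still called lower and 2 higher, where 27.4% and 29.1% of 12983 genes were called lower and higher. Kdr had the largest remaining change, a log2 fold change of -1.38 (SE 0.14, with an adjusted p of 5.687e-07 in edgeR). Notch3 stood at -0.96, Flt1 at -0.91, Cspg4 at -0.74 and Ptprb at -0.55, with edgeR adjusted p from 1.843e-09 for Flt1 to 0.0005315 for Cspg4. Rgs5 stood at -1.11 with a wide SE of 0.28 (edgeR adjusted p = 0.02693), and it was not called when cKO replicate 2, cWT replicate 1 or cWT replicate 2 was left out (adjusted p = 0.09589, 0.08345 and 0.0804).

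Tagln was still higher with the offsets, at 0.79 (SE 0.10, with an adjusted p of 6.555e-07 in edgeR). Ly6c1 shrank to 0.28 (SE 0.09, with an adjusted p of 0.01032 in edgeR), and its call was lost without cKO replicate 2, cWT replicate 1 or cWT replicate 3 (adjusted p = 0.0594, 0.05091 and 0.145), which left Tagln as the 1 member called higher. Cldn5 and Pecam1 were not called, at 0.03 (SE 0.09, with an adjusted p of 0.8149 in edgeR) and -0.11 (SE 0.08, with an adjusted p of 0.2598 in edgeR). The median of the 10 members was then -0.65, and that of all genes -0.01. Offset values hold only as far as the annotated transcript is the one expressed.

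**Figure D3:**
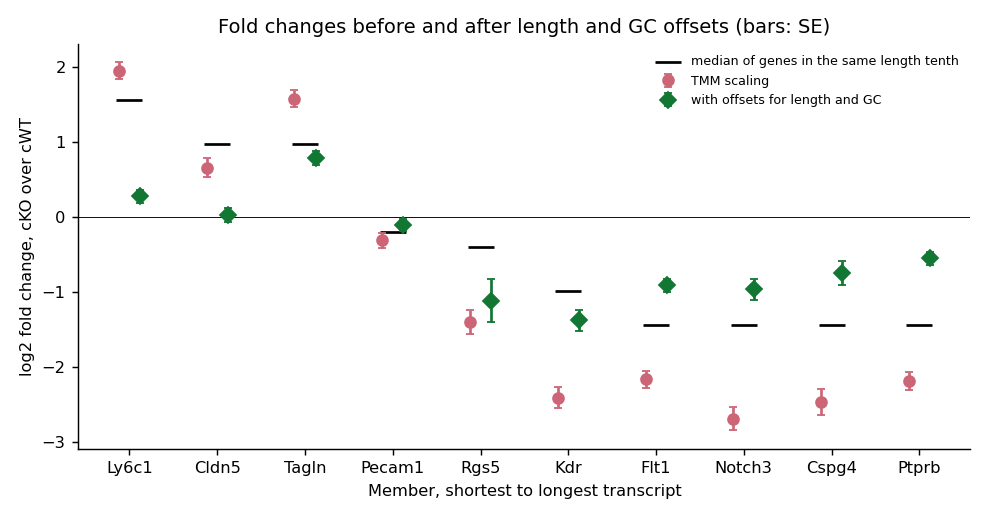
Log2 fold change of cKO over cWT for each member with TMM scaling (circles) and with the length and GC offsets (diamonds), bars showing SE, and black dashes at the median of genes in the same length group. Members are ordered from the shortest to the longest transcript, and the offset values of Cldn5 and Pecam1 lie within 0.11 of 0.

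Levels per kilobase of transcript set the members side by side within a genotype. Counts related to length differently in cWT and cKO, so the order of short and long genes is uncertain, and a change of order between genotypes carries that difference. Summed over all genes, the level was 365667 CPM per kilobase in cWT and 736196 in cKO (means), so the values are not on the same scale between genotypes. In cWT, Ly6c1 and Cldn5 were the most abundant members, at 256 ± 31.2 and 213 ± 22.3 CPM per kilobase (SD, n = 3 each), with overlapping ranges. Pecam1 followed at 49.6 ± 2.85. Flt1, Tagln, Ptprb and Rgs5 lay from 39.0 ± 3.86 to 27.3 ± 5.005, each overlapping its neighbour in that order. Kdr, Notch3 and Cspg4 were lowest, at 13.04 ± 1.12, 8.78 ± 1.03 and 3.28 ± 0.581 CPM per kilobase, with no overlap between neighbours.

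In cKO, Ly6c1 stood at 991 ± 71.0 CPM per kilobase and Cldn5 at 337 ± 66.8, now without overlap. Tagln came next at 89.4 ± 2.92, ahead of Pecam1 at 40.0 ± 4.33. Rgs5 (10.3 ± 2.65) and Flt1 (8.70 ± 0.971) overlapped, and Ptprb, Kdr, Notch3 and Cspg4 followed at 6.48 ± 0.907, 2.44 ± 0.584, 1.36 ± 0.373 and 0.588 ± 0.105.

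Further genes of the same cell types, listed by name, also went both ways. Their medians lay nearer to that of all genes than the median of the members did. Among all tested genes 35.6% were called higher and 36.5% lower. Of 32 further endothelial genes 10 rose and 15 fell (median log2 fold change -0.16), and of 21 further mural genes 7 rose and 10 fell (median -0.33). The 5 endothelial genes with the highest level per kilobase over the 6 libraries, a choice that favours genes with high levels in cKO, were Ly6a, Slc2a1, Cd34, Itm2a and Pglyrp1. Ly6a, a surface protein, rose by 1.97, Slc2a1, the glucose transporter of the barrier, by 0.95, Cd34, a sialomucin, by 0.47, Itm2a by 1.12 and Pglyrp1 by 1.57. By the cWT level alone Pltp, a phospholipid transfer protein named after its values were seen, stood above Itm2a and Pglyrp1 at 115 CPM per kilobase, and it fell by 0.72 (edgeR adjusted p = 2.148e-05). With the offsets Slc2a1 was higher by 1.26 (edgeR adjusted p = 4.103e-12), Ly6a by 0.41 and Cd34 by 0.21, while Itm2a and Pglyrp1 were not called, at 0.17 and -0.02.

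Among the 5 mural genes chosen in the same way, Myl9, a smooth muscle myosin light chain, rose by 1.52 and Higd1b, a pericyte marker, by 1.76. Acta2, smooth muscle actin, rose by 0.39 and Vtn, vitronectin, by 0.43. Mcam fell by 0.33 with libraries of the genotypes overlapping. By the cWT level alone Myh11, smooth muscle myosin heavy chain, named after its values were seen, stood above Higd1b, at 14.1 against 6.27 CPM per kilobase, and it fell by 1.42 (edgeR adjusted p = 1.246e-09). With the offsets Myl9 alone of these 5 was called, at 0.47 (edgeR adjusted p = 4.116e-05). The 5 do not stand for the whole list of 21, in which 10 fell and 7 rose. Pdgfrb, a pericyte receptor named after its values were seen, stood at -1.79, and at -0.74 with the offsets (edgeR adjusted p = 3.96e-05). With the offsets 5 of the 21 were lower and 4 higher. By total count scaling alone 3 of the 21 mural genes rose, compared with 7.

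Counts by length, with limits of 2000 and 5000 bases chosen after the values were seen, showed the same order among these further genes. Of 13 genes up to 2000 bases 10 rose and 1 fell, and of 10 genes over 5000 bases 1 rose and 8 fell. With the offsets 4 of the 13 rose and 3 fell, and 3 of the 10 rose and 3 fell, and the medians of the whole lists were then -0.05 (endothelial) and -0.16 (mural). With the offsets the endothelial list had 9 decreases in place of 15 and 9 increases in place of 10, and the mural list had 5 decreases in place of 10 and 4 increases in place of 7. Among all genes in that fit 27.4% were called lower and 29.1% higher.

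Some endothelial genes stood apart from genes of similar length, and they are named after their values were seen. Abcg2, a drug efflux pump of the barrier with a transcript of 5717 bases, rose by 0.79, and by 1.49 with the offsets (edgeR adjusted p = 3.985e-12). Ctla2a, a cathepsin inhibitor of 1373 bases, had the largest increase of the endothelial list at 3.04, and 1.89 with the offsets (edgeR adjusted p = 1.378e-12). Eng, a co-receptor for TGF-beta, fell by 1.44, and with the offsets it stood at -0.93 (edgeR adjusted p = 7.216e-11). Cdh5 and Sox18 stood lower still with the offsets, both at -1.03 (edgeR adjusted p = 2.947e-08 and 6.108e-10). Vwf, of 8834 bases, stood at -0.73 and was called higher with the offsets, at 0.95 (edgeR adjusted p = 0.006324). In the whole endothelial list 9 genes were called higher and 9 lower with the offsets.

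Of 13 genes tested in the VEGF and angiopoietin pathways around Flt1, Kdr and Ptprb, 10 fell and 1 rose (median -0.91). Among all tested genes 36.5% fell and 35.6% rose. With the offsets 7 fell and 1 rose, where 27.4% and 29.1% of all genes were called lower and higher. The ligands, named after their values were seen, were divided. Vegfa, Vegfb and Vegfc stood at -0.89, -0.52 and -1.83, Pgf and Angpt1 were not called, and Angpt2 rose. Nrp1, a VEGF co-receptor that microglia also express, fell by 1.87 (SE 0.10, with an adjusted p of 2.328e-11 in edgeR) and stood at -1.55 with the offsets. Tek, which encodes TIE2, went from 99.0 ± 11.5 to 39.6 ± 4.77 CPM (n = 3 each), a log2 fold change of -1.32 (edgeR adjusted p = 9.382e-09), and stood at -0.73 with the offsets. Tie1, its partner, fell by 0.90 and was not called with the offsets, at -0.13 (edgeR adjusted p = 0.2066). The 1 increase in this list, of Angpt2, was 0.74 (edgeR adjusted p = 0.02069) and 0.97 with the offsets, with libraries of the genotypes overlapping. It was lost with total count scaling, and without cKO replicate 2, cWT replicate 1 or cWT replicate 3 (counts of 0), while 2 genes rose without cKO replicate 1 or cWT replicate 2.

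In the Notch pathway around Notch3, 12 of 19 genes fell and 2 rose (median -0.68), and 10 fell and 1 rose with the offsets. Among all tested genes 36.5% fell and 35.6% rose, and with the offsets 27.4% fell and 29.1% rose. The 3 genes with the highest CPM, not scaled by length, encode parts of the machinery that cuts the receptor. The proteases Adam10 and Adam17 fell by 0.57 and 0.68, and the gamma-secretase subunit Ncstn by 0.66. Psenen, another gamma-secretase subunit with a transcript of 708 bases, named after its values were seen, rose by 1.77 (edgeR adjusted p = 2.693e-11), the largest increase of the list, and was not called with the offsets, at 0.03. Without the offsets the named receptor-cutting genes thus did not all move one way. Psenen lay 0.20 above the median of its length group, and with the offsets none of these genes was called higher. With the offsets Adam10 was not called (-0.13), while Adam17 stood at -0.20 and Ncstn at -0.58. Notch4, the endothelial Notch receptor, and Heyl, a Notch target of mural cells, are named after their values were seen. Heyl fell by 2.22 (edgeR adjusted p = 4.67e-06) and stood at -1.45 with the offsets. Notch4, with a transcript of 6591 bases, rose by 0.31 (edgeR adjusted p = 0.01025) and stood at 1.90 with the offsets. Without cWT replicate 3, or with total count scaling, 1 gene of this list rose in place of 2.

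Cells that share a marker with the members were examined by their own lists. Oligodendrocyte precursors, which also carry Cspg4, had 20.1 to 22.3 CPM in sum over 8 markers in cWT and 15.5 to 26.8 CPM in cKO, and 1 of 8 fell while none rose. Their defining gene Pdgfra was at 2.50 ± 0.460 and 3.31 ± 0.591 CPM (n = 3 each, edgeR adjusted p = 0.2091), and with the offsets it was called higher, at 1.58 (edgeR adjusted p = 5.002e-05). Fibroblast markers, 8 in number, had 4 higher and 4 lower, and summed to 128.7 to 136.8 CPM in cWT and 105.7 to 118.2 CPM in cKO, with Dcn at 3.47 ± 0.766 and 7.18 ± 1.25 CPM. With the offsets 1 of these 8 was called higher and 7 were not called. The part of either cell type in the values of Cspg4 and Tagln was not tested.

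Among leukocyte and platelet lists, which touch Pecam1 and Ly6c1, monocyte markers summed to 562.8 to 650.9 CPM in cWT and 1048 to 1350 CPM in cKO, with 4 of 7 higher and 2 lower. Neutrophil markers summed to 4957 to 5388 CPM in cWT and 11733 to 16179 CPM in cKO, with 4 of 8 higher and 3 lower. S100a8, a calcium-binding protein of neutrophils, was at 1121 ± 128 CPM in cWT and 4642 ± 993 CPM in cKO. Platelet markers summed to 165.8 to 192.9 CPM and 194.7 to 206.9 CPM, with 2 of 5 tested higher and 1 lower, and Pf4 at 51.9 ± 10.3 and 122 ± 4.38 CPM. As a share of all counts the platelet sum was instead lower in every cKO library. With the offsets none of the 7 monocyte markers was called higher and 4 lower, 1 of the 8 neutrophil markers higher and 5 lower, and none of the 5 platelet markers higher and 3 lower, so the balance of calls turned in the monocyte, neutrophil and platelet lists. The part of these cells in the values of Pecam1 and Ly6c1 was not tested.

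Choroid plexus markers, from a tissue rich in vessels, were higher in cKO for 7 of 7, and for 6 of 7 with the offsets. Ttr went from 2216 ± 130 to 12112 ± 1816 CPM (n = 3 each). Red cell markers summed to 113.6 to 163.2 CPM in cWT and 102.0 to 212.2 CPM in cKO, with 1 of 5 tested lower and none higher. The lowest log2 fold change of the 5 was -11.1, and with the offsets 4 of the 5 were called lower and none higher. Hba-a1 ranged from 13.3 to 126.7 CPM among the cKO libraries. Astrocyte markers summed to 423.7 to 449.2 and 416.8 to 650.1 CPM, oligodendrocyte markers to 286.9 to 294.5 and 316.2 to 467.9 CPM, border macrophage markers to 831.0 to 1048 and 875.0 to 1064 CPM, and neuron markers to 13.96 to 16.9 and 20.2 to 27.6 CPM. As shares of all counts the oligodendrocyte and neuron sums overlapped between genotypes. The part of these cells in the members' values was not tested.

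**Figure D4:**
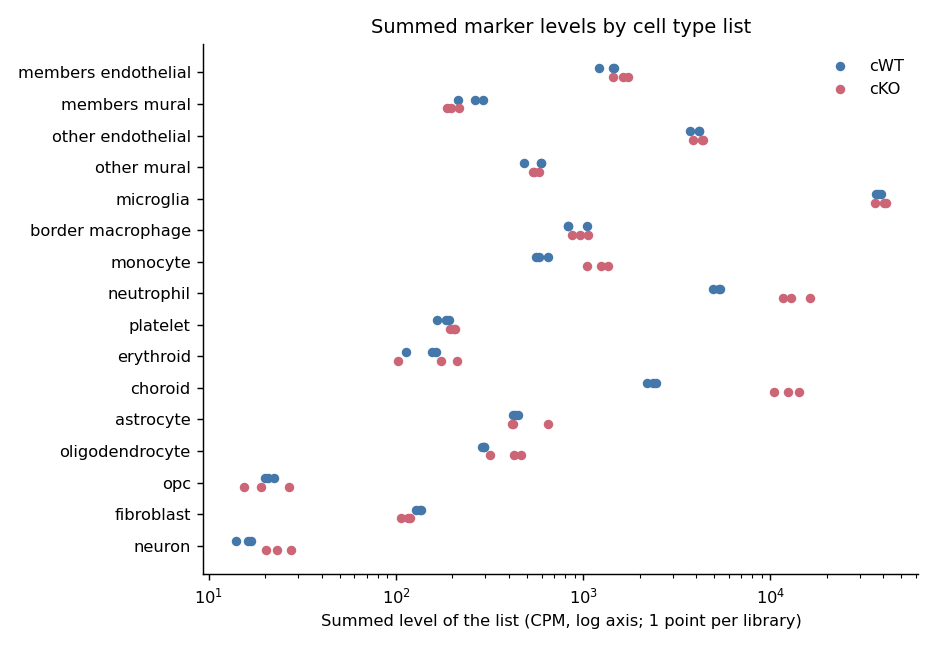
Summed level of each marker list in each library, in CPM on a log axis, for cWT and cKO (3 points each). The vascular lists overlap between genotypes on the TMM scale. As shares of all counts only the endothelial members overlap, and the mural members and both lists of further vascular genes are lower in each cKO library. On the TMM scale shown, the choroid, monocyte, neutrophil, platelet, oligodendrocyte and neuron lists are higher in each cKO library, the fibroblast list is lower in each, and the microglial list has the highest sums. As shares of all counts, the platelet list is lower in each cKO library and the oligodendrocyte and neuron lists overlap.

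Tested genes outside the lists were ranked by the Euclidean distance of their log2 CPM profile over the 6 libraries, each centred on its mean, to that of Cldn5. The nearest were 1700096K18Rik (distance 0.162), Rfxank (0.175) and Fcgrt (0.188), which encodes an Fc receptor. Among the other members, the distance ran from 1.204 for Tagln and 1.22 for Pecam1 to 4.12 for Notch3.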

How the data were processed

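RNA of microglia from 3 cKO and 3 cWT libraries was sequenced. The deposited table holds estimated counts by gene, left unscaled. Per the submitters' processing notes, the tools were STAR 2.7.9a, RSEM and DESeq2 and the builds GRCm38 and mm10, listed without roles. No source used here gives the annotation or strand setting. Between 5.5% and 5.85% of values per column were not whole, so counts were rounded. Per the file headers, the deposited comparison holds the mean signal per gene, log2 fold changes and their standard errors, a test score and p-values.

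Replicates differed by more than counting noise (chi-square per degree of freedom 3.76 to 18.2). edgeR 4.0.16 (R 4.3.3) fitted genotype alone by its quasi-likelihood test, with TMM scaling and filterByExpr at a minimum count of 10, and Benjamini-Hochberg adjustment over 13490 genes. Transcript length and GC came from a single GENCODE M21 transcript per gene, the principal one where tagged and another one otherwise. They were known for 96.2% of tested genes. Offsets came from a smooth (mgcv 1.9.3) of log2 count on length and GC in each library. Profile distances used a pseudocount of 0.5. Alternatives included DESeq2 1.42.0 and limma-voom 3.58.1. Only the main edgeR fit, DESeq2, limma-voom and the fit with offsets were run on simulated counts. Those counts had far fewer changed genes than these data, the same replicate spread for all genes and no GC effect. They therefore do not show how the fits perform here.

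Members and lists were chosen with earlier results of these data known. Named further genes were the 5 highest per kilobase over all 6 libraries of each vascular list, the 3 highest in CPM of each pathway, the leading gene of each cell type list and the 3 nearest to Cldn5. Of these, Gfap (7.02 ± 1.65 and 35.1 ± 17.8 CPM), Mrc1 (440 ± 67.9 and 247 ± 30.1 CPM), P2ry12 (4270 ± 615 and 5123 ± 819 CPM) and Snap25 (0.466 ± 0.182 and 0.379 ± 0.0702 CPM) are given here only, as cWT and cKO means (SD, n = 3 each). The leading gene of 1 list is not reported here.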

Additional observations from a re-analysis of the deposited data

How the results depend on the processing

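The 10 members kept direction and call in all 60 values obtained by leaving out 1 library, and under DESeq2, limma-voom, RLE scaling, no filter, a stricter filter (5 CPM or more in 3 libraries), and the replicate block. Library size alone moved the median over all genes by -0.39 (log2) and their calls to 3331 higher and 6742 lower, against 4803 and 4926, and ended the call of Cldn5. The offsets ended the calls of Cldn5 and Pecam1. Leaving out 1 library in the fit with offsets, a combination added after seeing the data, gave 5 to 6 members lower and 1 to 2 higher, compared with 6 and 2. Replicate numbers are shared by the genotypes, but deviations of same-numbered libraries correlated at 0.148, 0.0387 and 0.119, and cWT replicate 2 correlated best with cKO replicate 3, so the numbers were not taken as pairs. With the replicate block 4883 genes were higher and 5028 lower, and the members stayed at 3 higher and 7 lower. The fold change of Cspg4 rests on the fewest counts, 39 to 70 per cKO library.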
